A study of Rattus norvegicus with 12 samples.

Results

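Glutathione, peroxiredoxin and superoxide defence genes encode the enzymes that remove superoxide, peroxides and reactive electrophiles, with the enzymes that keep these systems reduced and the regulators that control many of them. The members are genes whose symbol on the platform belongs to one of these families, with no rule on measured values. They are the glutathione transferases (Gst and Mgst), glutathione peroxidases (Gpx), peroxiredoxins (Prdx), superoxide dismutases (Sod), catalase, thioredoxins and their reductases (Txn, Txnrd), glutaredoxins (Glrx) and sulfiredoxin (Srxn1). With them are the enzymes of glutathione synthesis and reduction (Gclc, Gclm, Gss, Gsr), the quinone reductases Nqo1 and Nqo2, and Nfe2l2 and Keap1. This gave 57 genes of the 14218 that have a probe set of their own, and where a gene had several probe sets (groups of short probes that match part of its transcript) the one with the highest mean signal was used. Probe sets that carry several symbols were left out, among them that of Prdx1 and one shared by Gsta2 and Gsta5. Of the 57, 53 passed a signal of 19.7 on at least 3 arrays and were tested for age among 13254 genes. The samples were cortex from 6 young and 6 aged male rats of the Fischer 344 strain, an inbred strain much used in aging research, with 1 Affymetrix RAE230 2.0 array per rat. The labels give the young rats as 3 to 5 months old and the aged rats as 21 to 23 months old, and their titles name parietal cortex while their tissue field names frontal cortex. Rats of both ages carried an implanted transmitter for sleep recording and were trained in a water maze before the cortex was taken, so neither group is a naive or unoperated one. The comparison of aged with young cortex asks how transcript levels differ with age in these trained rats.

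In this defence, superoxide dismutases turn superoxide into hydrogen peroxide, which catalase, glutathione peroxidases and peroxiredoxins then reduce to water. Glutathione is made by glutamate-cysteine ligase and glutathione synthetase, is spent by peroxidases and by the transferases that couple it to electrophiles, and is recycled by glutathione reductase, while thioredoxin and its reductases serve the peroxiredoxins in the same way. Many of the genes carry antioxidant response elements, to which the transcription factor Nrf2 (the product of Nfe2l2) binds when oxidants or electrophiles release it from Keap1. In brain, much of this defence is carried by glia, and neurons depend on astrocytes for glutathione precursors.

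The core of the antioxidant response element, TGACNNNGC on either strand, was searched in the 250 bases before each transcription start in RefSeq promoters of rat build GRCr8. It was present in 9 of 57 promoters of members (15.8%), which belong to 9 of the 49 members with a promoter entry, and in 3373 of 33469 promoters of all genes (10.1%). The windows of Gstp1, Gclm and Txnrd1 are shown because these genes stand for the transferases, the synthesis of glutathione and the thioredoxin system, and because their age differences are described here. The capitals mark the match, each sequence reads 5′ to 3′ along its own gene, and a match is a run of letters that was not tested for binding. In Gstp1 (chr1:210769733-210769791, minus strand) the match lies 61 to 53 bases before the start on the strand of the gene. In Gclm (chr2:213031938-213031996, plus strand) it lies 172 to 164 bases before the start, and in Txnrd1 (chr7:22755949-22756007, minus strand) 78 to 70 bases before it, on the opposite strand in both. The match in Gstp1 overlaps the related motif TGANTCA, which 5 of the 57 promoters of members (8.77%) and 6.34% of all promoters held, and those of Gclm and Txnrd1 do not.
Gstp1: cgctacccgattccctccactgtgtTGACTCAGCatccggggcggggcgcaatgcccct
Gclm: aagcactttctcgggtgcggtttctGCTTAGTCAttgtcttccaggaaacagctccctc
Txnrd1: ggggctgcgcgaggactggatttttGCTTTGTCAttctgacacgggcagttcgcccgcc
The other members with a match were Gpx2, Gsta3, Gstm5, Gstm7, Gstz1 and Sod2.

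The deposited signals are linear intensities whose trimmed mean was 500.1 on every array, while the median signal was 161.6 to 171.9 in young and 167.9 to 194.3 in aged rats. Aged rats 2 and 6 had the lowest median correlations with the other arrays, at 0.946 and 0.950, against 0.953 to 0.958 in the other rats. Aged rat 6 lay close to that range. The sample codes fall into 2 number series, a lower one with young rats 1 to 3 and aged rats 1 to 4 and a higher one with young rats 4 to 6 and aged rats 5 and 6, and values within each series are given for the genes that results turn on. All genes had a median log2 difference, aged minus young, of 0.024, and this was 0.0017 after quantile normalization and -0.047 after centring each array on its median, so small differences depend on the scaling. Neuronal transcripts were present in every group, with all 10 listed neuron markers tested and their summed signal at 63627 to 75151 in young and 63554 to 68376 in aged rats.

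No transcript of this defence differed with age beyond the threshold, and most of the intervals leave room only for small differences. None of the 53 members tested passed the test at an adjusted p under 0.05 (limma with Benjamini-Hochberg adjustment over all genes), a threshold passed by 0.0528% of all genes, and the smallest adjusted p of a member was 0.371. At an unadjusted p up to 0.05, 6 members were higher in aged rats (Mgst2, Gstp1, Mgst1, Keap1, Nqo2 and Txnrd2), which is 11.3% of the members against 6.47% of all genes, and none was lower, against 2.62% of all genes. The methods' t-test gave 5 higher members, without Txnrd2, and also none after adjustment. After quantile normalization 4 members were higher (Mgst2, Gstp1, Mgst1 and Keap1) and none lower, against 4.42% and 3.53% of all genes, and after median centring 3 were higher (Mgst2, Gstp1 and Mgst1) and 1 lower (Prdx6), against 3.11% and 6.67%. Over the whole table, 858 higher and 347 lower genes became 586 and 468, and 412 and 884. With the code series as a block 4 members were higher, against 7.31% of all genes, and with the subject number as a block 5, against 8.24%. Within the higher code series alone 4 were higher, against 6.01%, and within the lower series alone none was higher and 1 lower (Gsta3), against 3.29% and 1.52%. Without aged rats 2 and 6, 3 were higher (Mgst2, Gstp1 and Mgst1) and 1 lower (Gpx8), against 5.9% and 3.39%. The groups of aged and young rats overlapped for every member tested. Of all genes 0.777% showed no overlap, so finding none among 53 members is near that share.

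Most differences were small. The log2 difference was above 0 in 37 of 53 members (69.8%; all genes 56.9%) and had a median of 0.057 (all genes 0.024). Under median centring it was above 0 in 24 members (45.3%; all genes 37.8%) and had a median of -0.013 (all genes -0.047). The 95% interval lay inside a 1.5-fold change either way for 45 of the 53 members and inside a 2-fold change for 49. These counts were not made for all genes, so they do not set the members apart. The median size of the log2 difference was 0.093 in the members and 0.097 in all genes. Outside the 1.5-fold band were Mgst2, Gstp1 and Mgst1, whose means were higher in aged rats, and Gpx2, Gsta3, Gstm2, Gstm6l and Gstt1, which were dim. Among the 49 members above the signal cutoff on all 12 arrays, the 43 with an unadjusted p over 0.05 had fold differences of 0.842 to 1.16. Choosing by p itself narrows that range, and the members left out had fold differences of 1.09 (Keap1) to 1.46 (Mgst1).

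**Figure D1:**
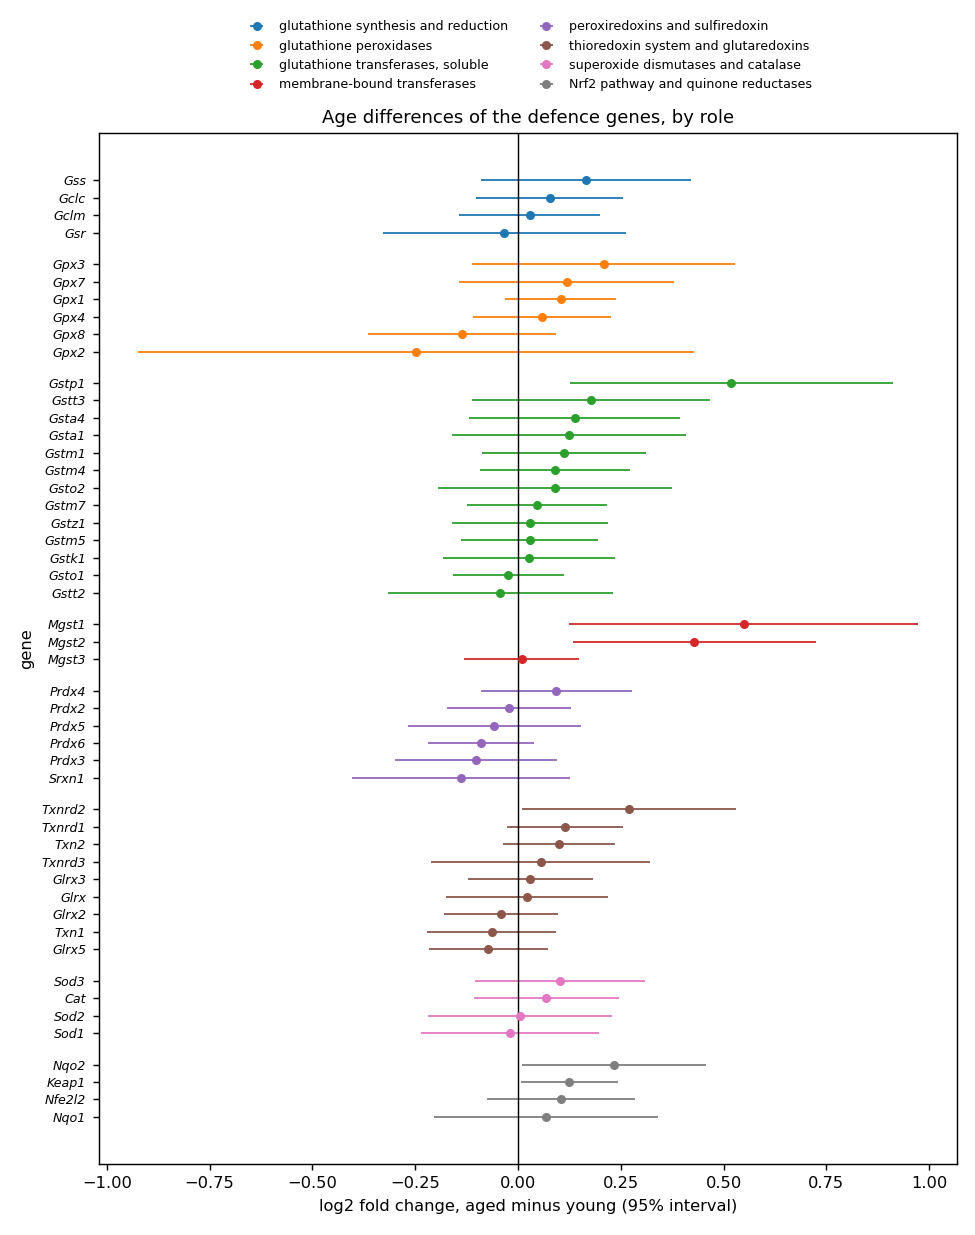
Log2 difference of signal, aged minus young, for the 53 members tested, coloured by role. Points are limma estimates and bars are 95% intervals. The 3 intervals that reach farthest right are those of Mgst1, Gstp1 and Mgst2, most others lie close to 0, and the widest belongs to the dim Gpx2. The dim genes Gsta3, Gstm6l, Gstt1 and Gstm2, above the cutoff on some arrays only, are not shown.

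The membrane-bound transferases held 2 of the 3 members with the smallest p. Mgst2, an enzyme of the endoplasmic reticulum that conjugates glutathione to lipid electrophiles and can make leukotriene C4, had a signal of 58.3 to 90.9, with a median of 77.8, in young and 81.9 to 133, with a median of 98.3, in aged rats. Above the highest young rat lay 4 aged rats, and no aged rat lay below the young median. The mean signal was 76.1 ± 11.7 (SD, n = 6) in young and 103 ± 18.7 (n = 6) in aged rats, a log2 difference of 0.43 (SE 0.13, limma adjusted p = 0.371). It was 0.30 within the lower and 0.66 within the higher code series.

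Mgst1, a detoxifying enzyme of endoplasmic reticulum and outer mitochondrial membranes, had a signal of 164 to 296, with a median of 208, in young and 231 to 427, with a median of 326, in aged rats. Above the highest young rat lay 3 aged rats, and the lower aged rats lay among the young ones. Its mean was 219 ± 53.5 in young and 321 ± 79.7 in aged rats, with a log2 difference of 0.55 (SE 0.19, limma adjusted p = 0.438), and 0.47 and 0.67 within the lower and higher series. Mgst3, which also reduces lipid peroxides, was near the same level in both groups at 5232 ± 228 and 5276 ± 472, with a log2 difference of 0.0087 and an interval of -0.13 to 0.15.

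Of the soluble transferases, which couple glutathione to electrophiles in the cytosol, 17 of 20 were tested. Their log2 differences had a median of 0.090, with 13 above and 4 below 0, which became 0.019 with 9 above and 8 below under median centring and -0.014 with 8 above and 9 below within the lower code series. Gstp1, the pi class enzyme, which in rodent brain is found in oligodendrocytes among other glia, was the 1 of them with an unadjusted p up to 0.05. Its signal was 2096 to 3682, with a median of 2739, in young and 3061 to 5560.5, with a median of 3370.5, in aged rats. Below every aged rat lay 5 young rats, and the mean of the aged group owed much to aged rats 1 and 4, at 5154 and 5560.5, the 2 aged rats above the highest young rat (young rat 1, at 3682). The means were 2728 ± 542 and 3963 ± 1095, a 1.43-fold difference on the log2 scale of the fit (0.52, SE 0.18, limma adjusted p = 0.431). It was 0.47 and 0.45 within the lower and higher series, and 0.41 to 0.61 with any single rat left out. For Gstp1, Mgst1 and Mgst2 the unadjusted p stayed at or under 0.05 with each of the 12 rats left out in turn, but not within the lower code series alone, nor for Mgst1 within the higher one.

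**Figure D2:**
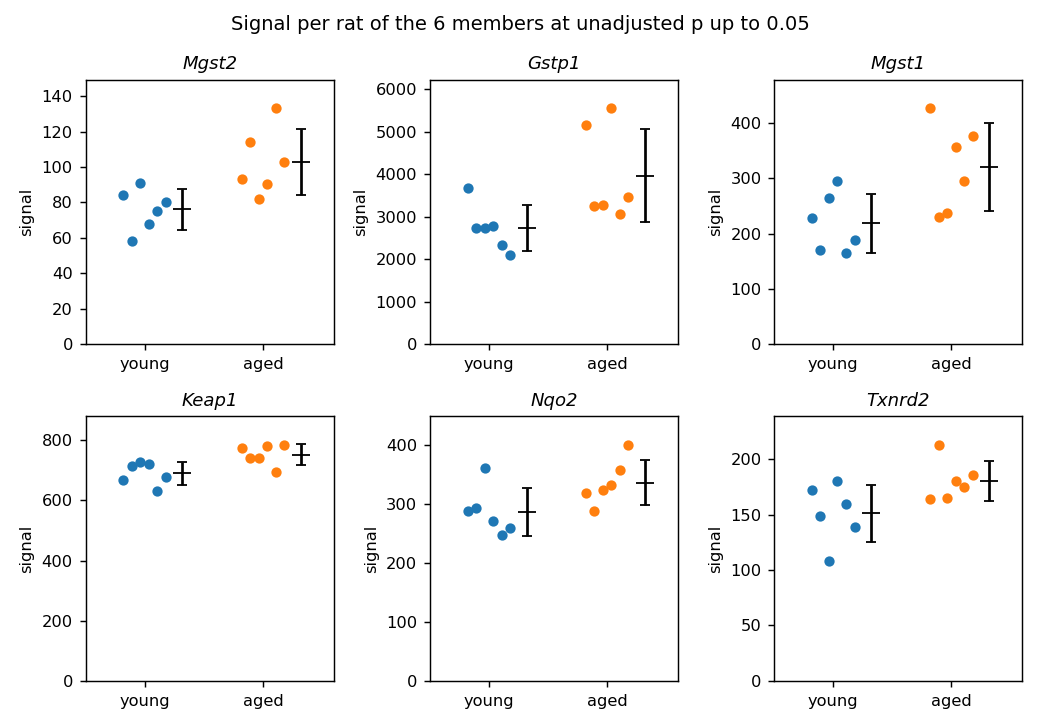
Signal (linear intensity, arbitrary units) in each rat for the 6 members with an unadjusted p up to 0.05. Points are rats, and the bars beside them show mean ± SD of 6 rats per group. The groups overlap in all 6, and Gstp1 has 2 aged rats far above the other 4.

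Markers of oligodendrocytes and myelin were highest in the rats with the highest Gstp1 signal, though not every rat followed this order. The log2 difference with age was above 0 in 9 of the 9 myelin markers tested, with a median of 0.24 (8 of 9 and 0.17 under median centring, 9 of 9 and 0.38 without aged rats 2 and 6), although none of the 9 had an unadjusted p up to 0.05. Their mean log2 level, relative to the young mean, was highest in aged rats 1 and 4, at 0.81 and 0.76, and in young rat 1 (0.47) among the young, the same 3 rats that were highest in Gstp1. Aged rat 2 had the lowest level of all rats, at -0.37, with a Gstp1 signal of 3263 that lay among those of the other aged rats. The summed signal of the list was 28819 to 40644 in young and 29549 to 47407 in aged rats, and no marker of the list was at 0. The part of myelin in the Gstp1 difference was not tested, and in tissue RNA more cells of a type cannot be told apart from more RNA per cell.

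**Figure D3:**
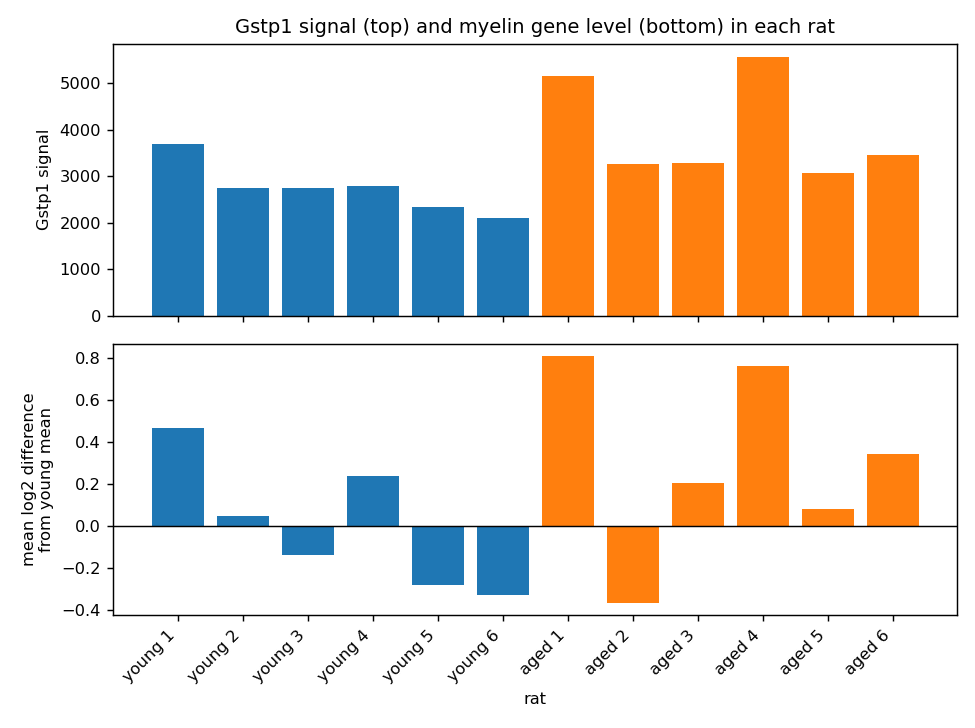
Gstp1 signal (top, linear intensity) and mean log2 level of 9 oligodendrocyte and myelin markers relative to the young mean (bottom) in each rat. Aged rats 1 and 4 are highest in both panels, and aged rat 2 is lowest in the lower panel at -0.37 while its Gstp1 signal is 3263.

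Markers of other cells differed in mean as well. All 10 microglia markers had a log2 difference above 0, with a median of 0.31, which was 0.17 without aged rats 2 and 6, and 4 had an unadjusted p up to 0.05. Their summed signal was 11326 to 14840 in young and 11977 to 19954 in aged rats. All 7 endothelial markers were above 0 with a median of 0.21 (summed signal 3566 to 4460 in young and 3981 to 5606 in aged rats), and so were 4 red blood cell markers with a median of 0.38, which was 0.21 without aged rats 2 and 6. The 9 astrocyte markers had a median of 0.041, which was -0.029 under median centring, and the 10 neuron markers had a median of -0.045, with 8 below 0 (-0.017 and 7 without aged rats 2 and 6). For meninges, 6 of 7 markers were below 0 with a median of -0.20 (4 of 7 and -0.25 without those 2 rats), and 6 choroid plexus markers had a median of 0.0095, which was -0.095 after quantile normalization. Other markers with an unadjusted p up to 0.05 (limma) were 2 of endothelium (higher), 1 of neurons (lower), and 1 higher and 1 lower of meninges. Over all 62 markers tested, those of myelin included, 7 were higher and 2 lower at that p, against 6.47% and 2.62% of all genes. None of these markers had an adjusted p under 0.05 (limma), and their part in the differences of Mgst1, Mgst2 and the other members was not tested.

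The other soluble transferases of high signal differed little. Gstm1, the main mu class enzyme, had means of 2450.1 ± 261 and 2647 ± 291 (log2 difference 0.11, interval -0.089 to 0.31), and its relatives Gstm5 and Gstm7 had log2 differences of 0.029 and 0.045. Members of one class are close in sequence, so probes of one may also read another. Gsta4, which clears the lipid peroxidation product 4-hydroxynonenal, had means of 432 ± 72.1 and 473 ± 59.0 (0.14, interval -0.12 to 0.40). The values of the omega enzyme Gsto1 were 3137 ± 145 and 3092 ± 251 (-0.023), and those of the alpha enzyme Gsta1 were 3441 ± 317 and 3804 ± 763 (0.12), with 3 aged rats above the highest young and 1 below the lowest. The largest estimate above 0 among soluble transferases was that of the dim Gstm2, with 27.3 ± 13.9 in young and 35.0 ± 4.49 in aged rats, where a log2 difference of 0.55 had an SE of 0.36 (limma adjusted p = 0.681). Its young rats ranged from 7.66 to 43.4 and its aged rats from 29.4 to 41.7, so the difference came from low young values, some below the cutoff.

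The remaining soluble transferases, Gsta3, Gstk1, Gstm4, Gstm6l, Gsto2, Gstt1, Gstt2, Gstt3 and Gstz1, had log2 differences from -1.14 (Gsta3) to 0.20 (Gstt1). Gsta3 was above the cutoff on 3 arrays, Gstm6l on 7, Gstm2 on 10 and Gstt1 on 11, and their intervals were wide, for Gsta3 -2.96 to 0.68. Gsta3l1 and Gstp3 were above the cutoff on 0 arrays and Gstm3 on 2, so none of these 3 was tested. The 2 probe sets of Gstt2 gave log2 differences of -0.043 and 0.42, the latter from the dimmer set.

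Genes for the supply of glutathione were near their young level. Gclc, the catalytic subunit of the ligase that limits glutathione synthesis, had a signal of 626 to 819 in young and 643 to 837 in aged rats, with means of 701 ± 68.3 and 739 ± 69.0 (log2 difference 0.077, interval -0.10 to 0.26). Its modifier subunit Gclm had means of 351 ± 37.4 and 357 ± 24.3 (0.029), and the aged rats all lay within the range of the young. Gss, glutathione synthetase, had 124 ± 17.4 and 139 ± 20.1 (0.17, interval -0.09 to 0.42), and Gsr, the reductase that recycles glutathione, had 178 ± 35.1 and 173 ± 27.5 (-0.033). The median over these 4 genes was 0.053, and it was -0.018 under median centring.

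Of the 7 glutathione peroxidases, Gpx6 was above the cutoff on 0 arrays and 6 were tested. Gpx4, which reduces lipid hydroperoxides in membranes and guards cells against ferroptosis, had means of 6931 ± 589.9 and 7217 ± 665 and a log2 difference of 0.057 (interval -0.11 to 0.23), and its second, dim probe set gave -0.045. Gpx1, the main cytosolic enzyme, had means of 1669 ± 126 and 1792 ± 87.8 (0.10, SE 0.062, limma adjusted p = 0.65), with 2 aged rats above the highest young. The secreted Gpx3 had 247 ± 47.6 and 285 ± 51.2 (0.21, interval -0.11 to 0.53), and its groups overlapped over most of their range. Gpx7 and Gpx8, peroxidases of the endoplasmic reticulum, had log2 differences of 0.12 and -0.14, and the dim Gpx2 had -0.25 with an interval of -0.92 to 0.43. The median over the 6 genes was 0.081, with 4 above and 2 below 0, and it was 0.010 with 3 above and 3 below under median centring.

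Peroxiredoxins, which reduce hydrogen peroxide with thioredoxin, had mostly estimates below 0. With sulfiredoxin, 5 of 6 had a log2 difference below 0 and the median was -0.073, which was -0.047 after quantile normalization and -0.14 under median centring, with 5 of 6 below 0 in both, but 0.0021 with 3 of 6 below 0 within the lower code series, against -0.16 within the higher one. Without aged rats 2 and 6 the median was -0.025, with 4 of 6 below 0. None of the 6 had an unadjusted p up to 0.05, and the direction was not tested as such. Prdx6, which has 1 active cysteine and reduces phospholipid peroxides, had a signal of 2517 to 2859, with a median of 2757, in young and 2359 to 2783, with a median of 2526, in aged rats. Below the lowest young rat lay 3 aged rats. Its means were 2709 ± 143 and 2548 ± 167, a log2 difference of -0.089 (SE 0.059, limma adjusted p = 0.681), and under median centring the difference was -0.16 at an unadjusted p up to 0.05 (limma adjusted p = 0.471).

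The mitochondrial Prdx3 had means of 1868 ± 78.0 and 1753 ± 235 (log2 difference -0.10, interval -0.30 to 0.094). Prdx2, the abundant neuronal peroxiredoxin of the cytosol, had 4572 ± 331 and 4505 ± 349 (-0.022), and Prdx5, found in mitochondria, peroxisomes and cytosol, had 3736 ± 231 and 3617 ± 502 (-0.057). The differences of Prdx2 and Prdx5 were smaller than the SD of either group. Prdx4, of the endoplasmic reticulum, had 668 ± 63.3 and 714 ± 75.3 (0.093), and Srxn1, which restores overoxidized peroxiredoxins, had 705 ± 138 and 634 ± 66.2 (-0.14, interval -0.40 to 0.13). The other 2 probe sets of Srxn1 gave -0.10 and, for the dimmest, 0.43. The only probe set for Prdx1 carries 2 symbols in the annotation and was left out.

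In the thioredoxin system, Txnrd2, the thioredoxin reductase of mitochondria, was among the 6 genes with an unadjusted p up to 0.05. Its signal was 108 to 180.4, with a median of 154, in young and 164 to 213, with a median of 178, in aged rats, and 3 aged rats lay above the highest young rat. The means were 151 ± 25.9 and 181 ± 18.1, with a log2 difference of 0.27 (SE 0.12, limma adjusted p = 0.532) and values of 0.36 and 0.19 within the lower and higher series. Its unadjusted p was over 0.05 when any 1 of 7 of the 12 rats was left out, and also after quantile normalization, after median centring and without aged rats 2 and 6.

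The cytosolic reductase Txnrd1 had means of 844 ± 38.5 and 916 ± 79.5 (log2 difference 0.11, SE 0.065, limma adjusted p = 0.634), with 3 aged rats above the highest young rat, but its second probe set gave -0.072. Mitochondrial thioredoxin, Txn2, had 949 ± 54.7 and 1018 ± 75.1 (0.10, limma adjusted p = 0.664), whereas cytosolic Txn1 had 6382 ± 463 and 6113 ± 541 (-0.064). Glrx, the cytosolic glutaredoxin that removes glutathione from proteins, had 1740.1 ± 172 and 1769 ± 206 (0.022). Glrx2, Glrx3, Glrx5 and Txnrd3 had log2 differences of -0.041, 0.03, -0.072 and 0.055. The median over the 9 genes was 0.030, and it was -0.040 under median centring.

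The superoxide dismutases and catalase differed little, with a median size of the log2 difference of 0.044. Sod1, the copper and zinc enzyme of the cytosol, had means of 5570.0 ± 212 in young and 5559.8 ± 974.7 in aged rats, with a log2 difference of -0.019 and an interval of -0.24 to 0.20. Sod2, the manganese enzyme of mitochondria, had 1627 ± 157 and 1641 ± 234 (0.0056, interval -0.22 to 0.23). Extracellular Sod3 had 236 ± 31.7 and 252 ± 18.4 (0.10, interval -0.10 to 0.31), and catalase, the peroxisomal enzyme, had 1279 ± 130.3 and 1338 ± 94.1 (0.069, interval -0.11 to 0.25). Each of the 4 intervals excludes a 1.5-fold change in either direction. The median of the signed differences over the 4 genes was 0.037, and it was -0.033 under median centring.

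Among the regulators and quinone reductases, all 4 estimates were above 0, with a median of 0.11, and under median centring 3 were above 0 with a median of 0.044. Keap1, the adaptor that holds Nrf2 for degradation, had a signal of 630.3 to 728, with a median of 697, in young and 695 to 785, with a median of 757, in aged rats. Above the highest young rat lay 5 of 6 aged rats. The difference was small, from 690.0 ± 38.4 to 752 ± 34.0 in mean (log2 0.13, SE 0.054, limma adjusted p = 0.524). It was 0.11 and 0.13 within the lower and higher series and 0.15 (SE 0.13) by its second probe set. Under median centring it was 0.054 (limma adjusted p = 0.795), and leaving out any 1 of 7 rats took its unadjusted p over 0.05. That p was also over 0.05 under median centring, within either code series alone, with the code series as a block and without aged rats 2 and 6.

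Nqo2, a quinone reductase that uses ribosyl nicotinamide rather than NADPH, had a signal of 247 to 361, with a median of 279.9, in young and 287 to 399.9, with a median of 327, in aged rats, and 1 aged rat lay above the highest young rat. Its means were 287 ± 40.4 and 336 ± 38.5 (log2 0.23, SE 0.10, limma adjusted p = 0.529). The difference was 0.55 within the higher code series and 0.0085 within the lower, and its unadjusted p was over 0.05 when any 1 of 9 of the 12 rats was left out. It was also over 0.05 after quantile normalization, after median centring, with the subject number or the code series as a block and without aged rats 2 and 6. Nfe2l2, which encodes Nrf2 itself, had means of 636 ± 64.5 and 683 ± 60.0 (0.10, interval -0.076 to 0.28). Nqo1, one of its best known targets, had 561 ± 89.4 and 587 ± 83.0 (0.068, interval -0.20 to 0.34). Neither Nfe2l2 nor Nqo1 differed beyond the spread between rats.

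A larger spread in aged rats was about as frequent in these genes as in others. Of the 49 members above the cutoff on all arrays, 29 (59.2%) had a larger SD of log2 signal in aged than in young rats, against 63.1% of 11430 genes, and without aged rats 2 and 6 this was 19 of 49 (38.8%) against 43.6%. The 5 members with the widest ratio of aged to young SD, chosen after their values were seen, were Sod1 (4.35), Glrx2 (4.01), Prdx3 (3.42), Glrx5 (3.08) and Prdx5 (2.41). Aged rat 6 was the lowest aged rat in each of the 5, with 4482 in Sod1 and 1328 in Prdx3, and aged rat 2 was the highest in Sod1 (7359), Glrx2 (3466) and Prdx5 (4103). Without these 2 rats the ratios were 1.30, 1.04, 1.51, 2.35 and 0.868. Both rats had the lowest correlations with the other arrays, and the part of that in these spreads was not tested further.

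**Figure D4:**
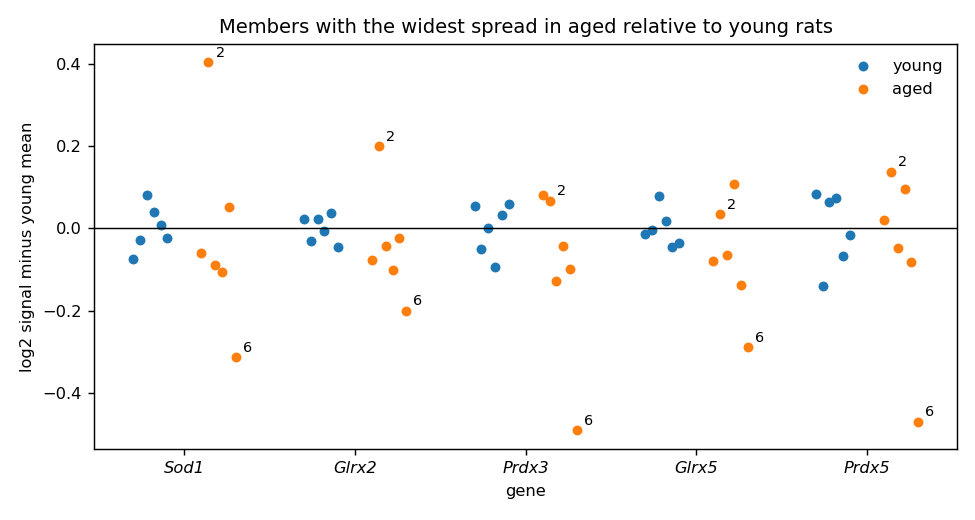
Log2 signal of each rat relative to the young mean for the 5 members with the widest ratio of aged to young SD, young in blue and aged in orange, 6 rats per group. The young points are tight, and aged rat 6 is the lowest aged point in each gene.

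Single rats differed in the level of the members as a whole. The mean log2 level of the 53 members relative to the young mean ran from -0.16 in young rat 5 to 0.11 in young rat 3, and from -0.0062 to 0.11 in the aged rats, while that of all genes ran from -0.035 to 0.063 in young and from 0.020 to 0.15 in aged rats. Young rat 3 was the highest of its group in 18 of 53 members (34.0%), against 19.1% of all genes. Young rat 5 was the lowest of its group in 18 of 53 members, although over all genes it was lowest in 18.2%, and it was the highest in 1.

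Genes that act around this defence were described with a list of 91, of which 82 had a probe set of their own and 80 were tested. None had an adjusted p under 0.05 (limma), 6 had an unadjusted p up to 0.05 and a higher mean in aged rats, which is 7.5% of the 80 against 6.47% of all genes, and none was lower at that p, against 2.62% of all genes. The 3 with the smallest p belong to the list of sources of superoxide and peroxide, in which 8 of 10 log2 differences were above 0 with a median of 0.20, and 6 of 10 with a median of 0.13 under median centring. Cyba, the p22phox subunit that the superoxide-producing NADPH oxidases of phagocytes and other cells share, had a signal of 189.5 to 263, with a median of 225, in young and 266 to 329, with a median of 299, in aged rats. The lowest aged rat lay above the highest young rat, a separation in that direction shown by 0.536% of all genes and, among the 80, by Cyba alone. Its means were 227 ± 28.2 and 295 ± 23.2 (log2 0.38, SE 0.089, limma adjusted p = 0.204), and it was 0.40 and 0.42 within the lower and higher code series. With the probe sets of Cyba averaged the log2 difference was 0.33 (limma adjusted p = 0.856). Of the other oxidase genes in the list, Cybb, Ncf4 and Duox2 had log2 differences of 0.19, 0.050 and 0.84, and Ncf1 and Nox4 had -0.12 and -0.91. None of them had an unadjusted p up to 0.05 (limma), and all but Ncf4 were below the cutoff on some arrays. Cyba is expressed by microglia, whose markers were also higher in mean in aged rats as given above, and their part in its difference was not tested.

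Maob, the outer mitochondrial monoamine oxidase of astrocytes, which releases hydrogen peroxide, had means of 1871 ± 209 and 2282 ± 215 (log2 0.29, adjusted p = 0.355). Aox1, an aldehyde oxidase that makes superoxide and peroxide, had 101 ± 9.04 and 134 ± 23.3 (0.40, adjusted p = 0.35), and its groups overlapped through aged rat 5, at 97.9. Txnip, the inhibitor of thioredoxin, had 832 ± 107 and 1040.3 ± 164 (0.32, adjusted p = 0.477). Ccs, the copper chaperone of Sod1, had 492 ± 59.9 and 578 ± 58.9 (0.23, adjusted p = 0.488), beside a Sod1 mean that was nearly the same in both groups. Akr7a3, an aldehyde reductase, had 101 ± 44.5 and 157 ± 43.1 (0.75, adjusted p = 0.523), and its young rats ran from 39.7 to 157. Its log2 difference was 0.27 within the lower and 1.14 within the higher code series, and that of Txnip was 0.19 and 0.49. Under median centring the unadjusted p of Maob, Txnip, Ccs and Akr7a3 was over 0.05, as it was for Akr7a3 after quantile normalization and for Ccs and Akr7a3 without aged rats 2 and 6. Leaving out any 1 of 2 rats did the same for Txnip, any 1 of 4 for Ccs and any 1 of 6 for Akr7a3. All of these adjusted p-values are from limma over all genes.

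For the remaining lists around the defence, the median log2 difference was 0.015 for 7 genes of NADPH supply, -0.010 for 14 of cystine and glutathione transport and turnover, 0.023 for 14 of aldehyde and electrophile removal, and 0.018 for 15 of thiol and methionine repair. It was 0.084 for 4 genes of heme and iron, 0.076 for 7 partners and regulators of Nrf2, 0.0060 for 6 of selenoprotein synthesis, and -0.11 for 3 metallothioneins. Under median centring, which moved the median of all genes to -0.047, the medians in the same order were -0.056, -0.081, -0.048, -0.052, 0.013, 0.0058, -0.065 and -0.19. In these 8 lists, 3 genes had an unadjusted p up to 0.05, which are the Txnip, Ccs and Akr7a3 described above.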

How the data were processed

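RNA of each rat was labelled and hybridized on its own array, and the deposited values are intensities, 1 for each of 31099 probe sets. MAS5, GCRMA and R (version 2.7.1) are named in the submitters' processing notes. According to the methods, gcRMA made the deposited signals. The gcRMA method writes log2 values, but the deposited intensities are linear, with a trimmed mean (2% at each end) of 500.1 on every array, and the role of each tool is not given in the sources used here. A scaling to one mean leaves differences between arrays in the distribution of signals, which moves small age differences by about as much as the members differ. The log2 of the signal was taken without further normalization or offset. The test design had assumed log2 values as deposited.

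Symbols came from the platform annotation. Of the probe sets, 20832 have 1 symbol, 436 several and 9831 none, and only those with 1 symbol were used, with symbols updated for 20764 through RefSeq gene IDs. The 57 members have 66 probe sets, and of several for 1 gene the one of highest mean signal stood for it. A gene was tested if its log2 signal passed 4.3 on at least 3 arrays, the number that the methods used as cutoff. The methods chose it from the distribution of gcRMA values, and it was not fitted again to the signals used here. It passed 13254 of 14218 genes, so being above it need not mean presence as in the methods. Aged and young rats were compared with limma 3.58.1 (lmFit and eBayes, two-sided) in R 4.3.3, with Benjamini-Hochberg adjustment over 13254 genes. "Rose" or "fell" would need an adjusted p under 0.05. With 1 array per rat, p-values measure the spread between rats, and 6 arrays per group limit the precision. Data for this comparison were simulated with 13254 genes, of which 100 were shifted by 0.5 on the log2 scale and 100 by 1. Of those shifted by 0.5, 50% were recovered, and of those shifted by 1, 81%. The simulation gave both ages the same spread. More shifted genes also loosen the adjusted threshold, and only 7 genes passed it in the real data, so these shares may overstate the recovery here. Tables and figures were made with Python 3.11.15 and matplotlib 3.10.9.

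The member rule uses symbols alone, but this rule and the lists of other genes were written with earlier results of these data known. Full values are given for the 12 members with the smallest p and for fixed genes of each role. Of the surrounding genes the 6 with the smallest p are described, and the other oxidase genes of the list are named beside Cyba. Other settings tried were quantile normalization and centring on the median, leaving out the filter or asking for all 12 arrays, an offset of 32 before the log2, averaging the probe sets of a gene and testing each probe set (19256 probe sets), array weights or a robust trend in limma, the methods' t-test and one with unequal variances, the subject number or code series as a block, each code series alone, and rats left out. Maze and sleep values per rat and the quality grade of the annotation were not used here.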

Additional observations from a re-analysis of the deposited data

Results flagged for a closer look

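In 114 groups of 6 rats (57 members at 2 ages), 8 values lay so far from the other 5 that the gap divided by the range was above Dixon's 95% critical value for 6 samples. Chance marks about 1 group in 20, so a count of this size is near that level. In young rats, the catalase signal was 1014 in rat 5, below the others at 1316 to 1354. Gpx2 was 87.6 in young rat 6 against 37.0 to 55.8 in the others, and Gpx8 was 759 in young rat 4 against 548 to 599. Gstm3, which is below the cutoff in nearly all rats, was 17.4 in young rat 5. Srxn1 was 968 in young rat 6, above 588 to 726 in the others, and 507 in aged rat 1, below 622 to 685. In aged rats, Gsta4 was 581 in rat 1 against 421 to 481 in the others, and Gsto2 was 151 in rat 2 against 90.4 to 108. None of the 8 values belongs to a member with an unadjusted p up to 0.05.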

How the results depend on the processing

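No member had an adjusted p under 0.05 under any alternative, and the smallest adjusted p of a member ran from 0.246 to 0.998. Median centring turned the median log2 difference of the members from 0.057 to -0.013, and that of all genes from 0.024 to -0.047. With single rats left out the median of the members ran from 0.031 to 0.088. The count of members higher at an unadjusted p up to 0.05, 6 in the reported fit, was 3 under median centring, 0 in the lower code series alone and 3 without aged rats 2 and 6, and 3 to 5 with single rats left out (3 without young rat 6 or aged rat 4). The counts of 4 (quantile normalization, the trend fit, the code series as a block, the higher series alone) and 5 are within 1.5 times of it. The count of lower members, 0 in the reported fit, was 1 under median centring (Prdx6), in the lower code series alone (Gsta3) and without aged rats 2 and 6 (Gpx8), and 0 to 0 with single rats left out. The cause of these changes was not tested. Single series hold 7 and 5 of the 12 rats. Members with a larger SD in aged rats numbered 29, and 19 without aged rats 2 and 6, an omission chosen after seeing the data.

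None of the 6 members named at an unadjusted p up to 0.05 changed sign under any alternative, and 24 of the 53 members kept their sign under all 28. With the subject number as a replicate block the count was 5 (without Nqo2), the median 0.057 and the smallest adjusted p 0.246. The reported fit did not take the numbers as pairs, because the labels name no pairing of young with aged rats. Same-numbered rats were not free of shared deviations, however. Their 6 correlations ran from -0.039 to 0.16, with 4 over 0.1, the value set to count as paired. Of the 6 young rats, 4 correlated best with their own number, and what same-numbered rats share was not tested. Dim probe sets, such as that of Gsta3, limit what can be said of their genes.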
